A study of Homo sapiens with 6 samples.

Results

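Transcript counts were examined for 9 of the 60252 features in the deposited count table. They were GREM1 with GREM1-AS1 on the opposite strand, the BMP target genes ID1, ID2, ID3, SMAD6 and SMAD7, and TWIST1 with AC003986.2 on the opposite strand. The features were picked by name and selected on values measured in the same libraries: the levels of GREM1 and GREM1-AS1 after release and the inhibitor responses of TWIST1. Those comparisons are given as descriptions. Where the fit called a member in one of them, this is stated beside the share of all features called, and nothing is read from it.

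The cells were RPE-1, 1 human line of retinal pigment epithelial origin that carries telomerase. Arrested cells had 24 h in 2 mM thymidine, a block at the entry to S phase, and were not released. Released cells had the same block and 3 washes, and from 1 h after the wash they received DMSO or 2 µM AZ20, an inhibitor of the checkpoint kinase ATR. They were collected 4 h after the wash (4h_DMSO and 4h_ATRi, placed in late S phase by the design text, 3 h with the agent) or 6 h after it (6h_DMSO and 6h_ATRi, placed in G2, 5 h with the agent). Cycling cells were asynchronous, and neither they nor the arrested cells had a drug, per the labels. The study asked which transcripts ATR controls at each of the 2 times. Each condition has 3 libraries, lettered A, B and C and taken as 3 independent experiments, except 6h_ATRi, which has A and B (C is not analysed here).

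GREM1 encodes gremlin 1, a secreted protein that binds BMP ligands outside the cell and keeps them from their receptors. Free BMP ligands activate receptor kinases that phosphorylate SMAD1, SMAD5 and SMAD9, and these move with SMAD4 to the nucleus, where ID1, ID2, ID3, SMAD6 and SMAD7 are among the most widely used target genes. The ID proteins bind E proteins, the partners of factors such as TWIST1, and hold them off DNA, while SMAD6 and SMAD7 feed back on the receptors as inhibitors. TWIST1 is a helix-loop-helix factor of mesenchymal cells that binds E-boxes.

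A library held 1758747 to 2357561 counts (2032330 ± 179424, SD, n = 17). CPM gives a feature's counts relative to the library total, so CPM values compare a feature between libraries and not different genes with each other. Many counts lay on the strand opposite to an abundant gene. Among 2310 pairs of a coding gene and a noncoding feature on the opposite strand with at least 340 counts in total, 1671 pairs (72.3%) had more counts on the noncoding feature. Of 16 pigment epithelium markers 7 passed the filter on low counts, and 5 of these share exon bases with a gene on the opposite strand. These were BEST1 (opposite FTH1, 12700 CPM), PMEL (opposite CDK2, 319 CPM), TYRP1 (opposite LURAP1L-AS1, 4.13 CPM) and the keratins KRT8 and KRT18, which overlap each other (3800 and 280 CPM). The markers without such an overlap were SERPINF1 (19.7 CPM) and MITF (4.71 CPM). The other 9 did not pass the filter. OTX2 was the highest of them (0 to 4.92 CPM), and the visual cycle genes RPE65 (0 to 0.977 CPM) and RLBP1 (0 to 1.59 CPM) were near 0. Of 9 photoreceptor markers 6 reached 10 counts in a library, and the 9 summed to 47.0 to 84.5 CPM. Among these 6, NRL (23.1 CPM) lies opposite DCAF11, whereas CRX (11.8 CPM), ARR3 (11.2 CPM) and PDE6A (10.9 CPM) have no such overlap. The summed levels of 9 fibroblast and mural markers overlapped between all 6 conditions (31.6 to 89.5 CPM). Of 6 blood cell markers, 4 were at 0 in every library and the rest summed to at most 1.81 CPM.

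GREM1 and GREM1-AS1 lie on chromosome 15, and the starts of the 2 genes face each other. In RefSeq, GREM1 has 2 starts on the plus strand, and the start of GREM1-AS1 on the minus strand lies 861 bases past the first of them and 381 bases past the second. GREM1-AS1 is thus transcribed toward and across both starts of GREM1. Exons of the pair share 188 bases in GENCODE 29. The promoter sequences are shown because counts on the 2 features moved together, as described further on. Each is the 250 bases before a start in RefSeq (GRCh38.p14), read 5′ to 3′ on the gene's own strand. Capitals mark GGCGCC, the GC-rich element bound by BMP SMADs, GTCTAGAC, the palindrome bound by SMAD proteins, CCAAT and TATAAA, each on either strand.
GREM1, first start, chr15:32717754-32718003, plus strand: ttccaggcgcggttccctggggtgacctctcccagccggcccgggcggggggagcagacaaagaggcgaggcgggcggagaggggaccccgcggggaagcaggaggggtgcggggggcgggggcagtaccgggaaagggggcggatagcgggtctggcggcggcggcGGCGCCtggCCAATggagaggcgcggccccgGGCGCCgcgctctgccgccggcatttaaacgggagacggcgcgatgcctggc
GREM1-AS1, chr15:32718866-32719115, minus strand: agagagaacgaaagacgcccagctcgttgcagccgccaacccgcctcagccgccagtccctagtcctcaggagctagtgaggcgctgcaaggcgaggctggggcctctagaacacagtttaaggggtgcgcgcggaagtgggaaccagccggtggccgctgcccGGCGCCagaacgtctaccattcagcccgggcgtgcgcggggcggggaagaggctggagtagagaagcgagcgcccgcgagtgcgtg
The first GREM1 window held GGCGCC 83 and 52 bases before the start, with CCAAT between them at 74 bases. The window of the second GREM1 start held none of the 9 motifs searched. The GREM1-AS1 window held GGCGCC 86 bases before its start and no CCAAT. Of all 35116 promoter windows of this length, 16.4% held GGCGCC and 32.0% held CCAAT. The letters G and C made up 76.8% of the first GREM1 window and 67.6% of the GREM1-AS1 window, against a median of 58.0% over all windows. How often windows of like content hold GGCGCC was not counted.

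Sequences of 2 target genes are shown for contrast with GREM1, the SMAD6 window for the rarest of the motifs found and the ID1 window for its TATA and CCAAT boxes.
SMAD6, chr15:66701986-66702235, plus strand: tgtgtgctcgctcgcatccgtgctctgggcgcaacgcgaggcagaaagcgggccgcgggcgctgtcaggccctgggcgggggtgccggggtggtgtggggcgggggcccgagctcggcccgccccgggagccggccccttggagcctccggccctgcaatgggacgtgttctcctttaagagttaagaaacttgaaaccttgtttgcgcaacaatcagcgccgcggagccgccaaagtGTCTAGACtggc
ID1, chr20:31605039-31605288, plus strand: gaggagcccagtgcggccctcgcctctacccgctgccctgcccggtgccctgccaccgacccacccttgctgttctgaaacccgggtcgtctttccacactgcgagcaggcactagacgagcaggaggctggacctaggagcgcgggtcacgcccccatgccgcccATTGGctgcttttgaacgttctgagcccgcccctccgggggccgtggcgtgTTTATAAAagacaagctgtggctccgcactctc
SMAD6 held GTCTAGAC 12 bases before its start, a motif found in 0.182% of all windows. ID1 held CCAAT, read on the other strand as ATTGG, 84 bases before the start, and TATAAA on both strands in overlapping matches at 33 and 31 bases. TATAAA was also in 1 of the SMAD7 windows, 35 bases before that start, and in 10.7% of all windows. The 7 members with a window had 10 windows in all, and none of these held the TWIST-type E-boxes CATCTG (12.2% of all windows) or CATATG (2.63%), or the E2F site TTTCCCGC (1.39%). The general E-box CANNTG, which includes both TWIST-type letters, was in the ID2 window and 2 of the SMAD7 windows, against 61.8% of all windows. The CHR element TTTGAA, a letter string of cell cycle promoters, was in the windows of ID1 and ID3 and in 13.3% of all windows. A match of letters is a description and not a site of binding.

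GREM1 was lowest in cycling cells and highest 4 h after release, with or without the inhibitor. Its level was 26.8, 22.6 and 30.1 CPM in cycling cells (experiments A, B and C) and 40.0, 32.8 and 30.7 CPM in arrested cells. At 4 h it was 113, 98.2 and 113 CPM with DMSO and 115, 73.7 and 122 CPM with AZ20. At 6 h it was 75.8, 68.4 and 89.0 CPM with DMSO and 74.9 and 47.3 CPM with AZ20. Every released library was above every unreleased one. The means were 26.5 ± 3.77 CPM in cycling cells, 34.5 ± 4.86 CPM in arrested cells, 108 ± 8.55 CPM in 4h_DMSO and 77.7 ± 10.5 CPM in 6h_DMSO (SD, n = 3). Libraries of neighbouring conditions without inhibitor did not overlap in this order, and the lowest arrested library (30.7 CPM) was just above the highest cycling one (30.1 CPM).

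GREM1-AS1 ran through the same order. It was at 156, 130 and 167 CPM in cycling cells, 230, 201 and 200 CPM in arrested cells, 782, 574 and 575 CPM in 4h_DMSO and 436, 415 and 409 CPM in 6h_DMSO. With AZ20 it was at 643, 472 and 593 CPM at 4 h and at 464 and 261 CPM at 6 h. Library A of 4h_DMSO was the highest of all 17, and library B of 6h_ATRi the lowest of the released ones. The means were 151 ± 18.8, 211 ± 17.1, 644 ± 120 and 420 ± 14.4 CPM in cycling, arrested, 4h_DMSO and 6h_DMSO cells (SD, n = 3).

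**Figure D1:**
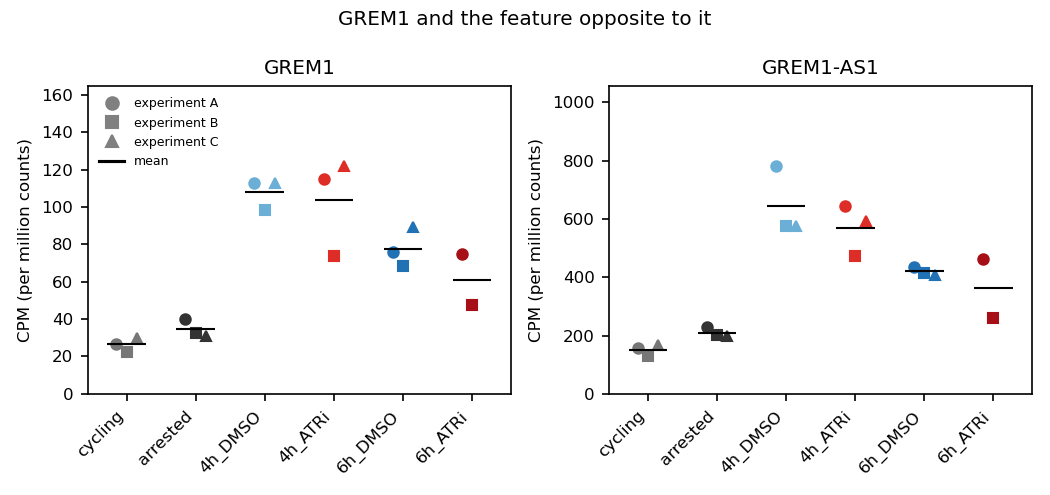
Level of GREM1 (left) and GREM1-AS1 (right) in CPM (counts relative to the library total) by condition; each point is 1 library with its experiment given by shape, and the line is the mean. Both features are lowest in cycling cells (GREM1 at 22.6 to 30.1 CPM) and highest at 4 h of release, with 6 h in between.

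Within each experiment the difference between released and arrested cells had the same direction. GREM1 in 4h_DMSO was 2.82, 2.99 and 3.69 times its arrested level in A, B and C, and GREM1-AS1 was 3.39, 2.85 and 2.87 times. In 6h_DMSO GREM1 was 1.90, 2.08 and 2.90 times its arrested level. The fitted log2 difference of 4h_DMSO from arrested cells was 1.65 ± 0.21 for GREM1 and 1.61 ± 0.19 for GREM1-AS1 (edgeR, value ± SE). For 6h_DMSO against arrested cells it was 1.17 ± 0.21 and 1.00 ± 0.19. Against cycling cells, GREM1 differed by 2.02 ± 0.21 at 4 h and 1.55 ± 0.21 at 6 h, and GREM1-AS1 by 2.09 ± 0.19 and 1.48 ± 0.19. The comparisons with arrested and with cycling cells share their released libraries.

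Of the 9 features, 8 passed the filter on low counts and entered the fit (22.4% of all rows did), and ID2 did not. GREM1 and GREM1-AS1 were the 2 members called in 4h_DMSO against arrested cells, where 0.74% of the 13510 features tested were called at an adjusted p under 0.05. They were also the 2 called in 6h_DMSO against arrested cells (2.32% of all features called), in 4h_DMSO against cycling cells (0.918%) and in 6h_DMSO against cycling cells (1.04%). Nothing is read from these 4 counts, because the pair was chosen with them known. In the authors' deposited table GREM1 had a log2 fold change of 1.47 and GREM1-AS1 one of 1.49 in 4h_DMSO against arrested cells.

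Between 4 h and 6 h without inhibitor both features were lower, in all 3 experiments. GREM1 in 6h_DMSO was 0.671, 0.697 and 0.787 times its 4h_DMSO level in A, B and C, and GREM1-AS1 was 0.558, 0.723 and 0.712 times. The log2 difference was -0.48 ± 0.20 for GREM1 and -0.61 ± 0.18 for GREM1-AS1 (edgeR). No member was called without a replicate block, where 0.0814% of features were called. With the experiment as a block, which removes differences between experiments, GREM1-AS1 was the 1 member called (-0.60 ± 0.10, with 1.04% of features called). Nothing is read from that call, because the pair was selected on its levels after release.

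Arrested cells had more of both features than cycling cells. GREM1 in arrested cells was 1.49, 1.45 and 1.02 times its cycling level in A, B and C, and GREM1-AS1 was 1.48, 1.54 and 1.20 times. The fitted difference of GREM1 was 0.37 ± 0.22 (edgeR adjusted p = 0.647) and did not pass. GREM1-AS1 differed by 0.48 ± 0.19, and it passed with the replicate block (edgeR adjusted p = 0.000962) and not without it (adjusted p = 0.346). Without the block 1.03% of features and 0 members were called, and with the block 5.64% of features and 1 member.

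The ATR inhibitor gave no call on this pair at either time. In 4h_ATRi against 4h_DMSO, GREM1 was 1.02, 0.751 and 1.08 times the DMSO level in A, B and C, a log2 difference of -0.06 ± 0.19 (edgeR adjusted p = 1.0). At 6 h the ratios were 0.989 and 0.692 in A and B, a difference of -0.35 ± 0.23 (adjusted p = 1.0). Library B was the lower one at both times. GREM1-AS1 differed by -0.18 ± 0.18 at 4 h and -0.21 ± 0.20 at 6 h, again with an edgeR adjusted p of 1.0. The difference between the 6 h and 4 h responses was -0.28 ± 0.30 for GREM1 and -0.04 ± 0.27 for GREM1-AS1. These standard errors leave room for changes of the size seen in library B.

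The counts of the pair divided between its strands in similar proportion in all conditions. GREM1 held 2395 of the 16095 counts on the pair (14.9%), so GREM1-AS1 had 5.72 times as many. By library the share on GREM1 ran from 12.6% in 4h_DMSO A (exact 95% interval 11.1% to 14.2%) to 17.9% in 6h_DMSO C (15.4% to 20.5%), with a median of 14.8%, and by condition from 14.0% in arrested cells to 15.5% in 6h_DMSO. Across the 17 libraries, with the mean of each experiment removed, the log2 CPM of the pair had a Pearson r of 0.988, the highest of any feature with GREM1. The strand setting used in counting is not known from the labels, so a count on either feature can belong to the gene or to its partner. Summing the pair gave log2 differences of 1.62 ± 0.19 for 4h_DMSO against arrested cells and -0.59 ± 0.18 for 6h_DMSO against 4h_DMSO. The latter was called with the block, as GREM1-AS1 was. The summed arrested and cycling levels differed by 0.47 ± 0.19 (edgeR adjusted p = 0.358, and 0.000892 with the block).

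**Figure D2:**
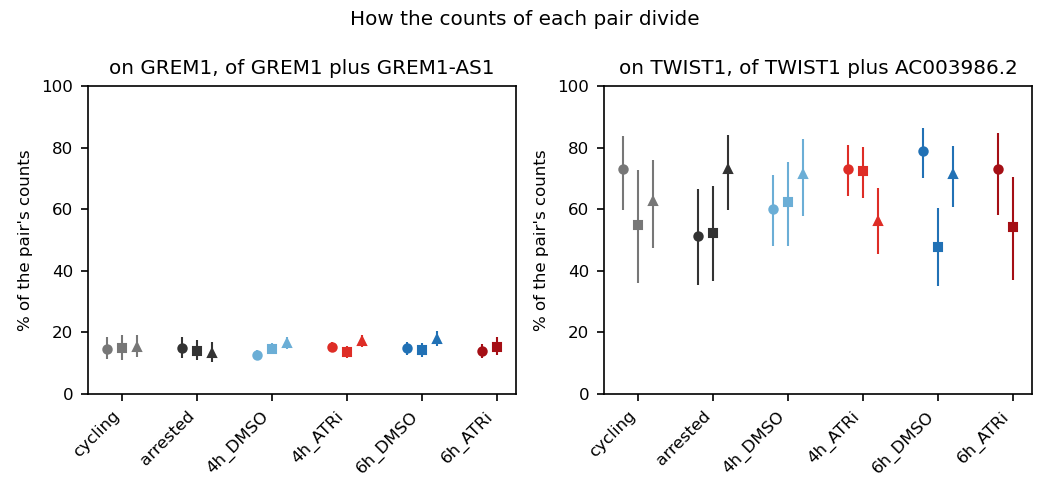
Percentage of each pair's counts that lies on the coding gene, by condition, for GREM1 with GREM1-AS1 (left) and TWIST1 with AC003986.2 (right); points are libraries, shapes are experiments as in the other plots (circle A, square B, triangle C) and bars are exact 95% binomial intervals, which cover counting error only. GREM1 holds 12.6% to 17.9% in every library, whereas TWIST1 holds 47.7% to 79.0% with wide intervals.

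ID1, ID3, SMAD6 and SMAD7 are target genes of BMP signalling, and none of the 4 was called in any of the 9 comparisons, with or without the replicate block. Their counts per library were small, from 3 counts (SMAD6 in 6h_DMSO C) to 42 counts (ID1 in 4h_DMSO B), so only large changes could have passed. ID1 averaged 9.60 ± 3.24 CPM in cycling cells, 9.39 ± 3.68 in arrested cells, 12.7 ± 7.16 in 4h_DMSO and 9.96 ± 3.83 in 6h_DMSO (SD, n = 3). With AZ20 it averaged 12.1 ± 4.91 CPM at 4 h (n = 3) and 10.5 ± 6.21 CPM at 6 h (n = 2). Experiment A was the lowest of its condition in 5 of 6 conditions, and all conditions overlapped. The ID1 difference between 4h_DMSO and arrested cells was 0.42 ± 0.45 on the log2 scale (edgeR adjusted p = 0.869).

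ID3, a second inhibitor of E proteins, averaged 11.9 ± 3.06 CPM in cycling cells and 8.34 ± 2.23 CPM in 4h_DMSO (SD, n = 3). Its lowest library was 6h_ATRi A at 3.89 CPM and its highest cycling A at 15.4 CPM. The log2 difference was -0.19 ± 0.41 for 4h_DMSO against arrested cells and -0.66 ± 0.40 for 6h_DMSO against cycling cells (edgeR adjusted p = 0.96 and 0.624). With the inhibitor it was 0.37 ± 0.40 at 4 h, and higher in all 3 experiments. At 6 h it was 0.24 ± 0.46, but ID3 with AZ20 was 0.765 times its DMSO level in A and 1.74 times in B. That value was 0.84 without 6h_ATRi A, -0.94 without 6h_ATRi B and -0.01 without 6h_DMSO A, so its sign rests on single libraries.

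SMAD6, the inhibitor most selective for BMP receptors, was at 8.79, 15.2 and 8.13 CPM in cycling cells (A, B and C). It was at 9.99, 4.41 and 6.04 CPM in arrested cells, 3.47, 7.82 and 4.39 CPM in 4h_DMSO and 6.00, 6.94 and 1.63 CPM in 6h_DMSO. With AZ20 it was at 9.94, 4.50 and 4.23 CPM at 4 h and 3.33 and 5.31 CPM at 6 h. Every 4h_DMSO, 6h_DMSO and 6h_ATRi library was below every cycling library, whereas 4h_ATRi overlapped cycling cells. The log2 difference from cycling cells was -1.02 ± 0.48 at 4 h and -1.11 ± 0.48 at 6 h, with edgeR adjusted p of 0.47 and 0.392, so neither passed. SMAD7, which acts on both BMP and TGF-beta receptors, averaged between 5.85 CPM in 4h_ATRi and 7.02 CPM in 4h_DMSO, and all its conditions overlapped. The difference between its 6 h and 4 h inhibitor responses was 0.45 ± 0.71, and with 1 library left out it ran from 0.04 (without 4h_ATRi A) to 1.11 (without 4h_ATRi C). In 4h_ATRi against 4h_DMSO the difference was -0.27 ± 0.47, with 0.12 and -0.93 when the same libraries were left out.

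ID2 was at or near 0. It had 0 to 3 counts in a library and 0 in 6 of 17, and its mean was under 1 CPM in every condition, so no fold change is given. ID2-AS1 on the opposite strand, which shares 38 exon bases with it, had 0 to 7 counts. Of these 5 target genes ID1, ID3, SMAD6 and SMAD7 thus had counts to compare, and no opposite-strand exon overlaps any of the 4 in GENCODE 29. The strand setting of the counting is not known. Whether the counts of these 4, and of the listed genes described further on, are reads of their own mRNA was not tested.

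**Figure D3:**
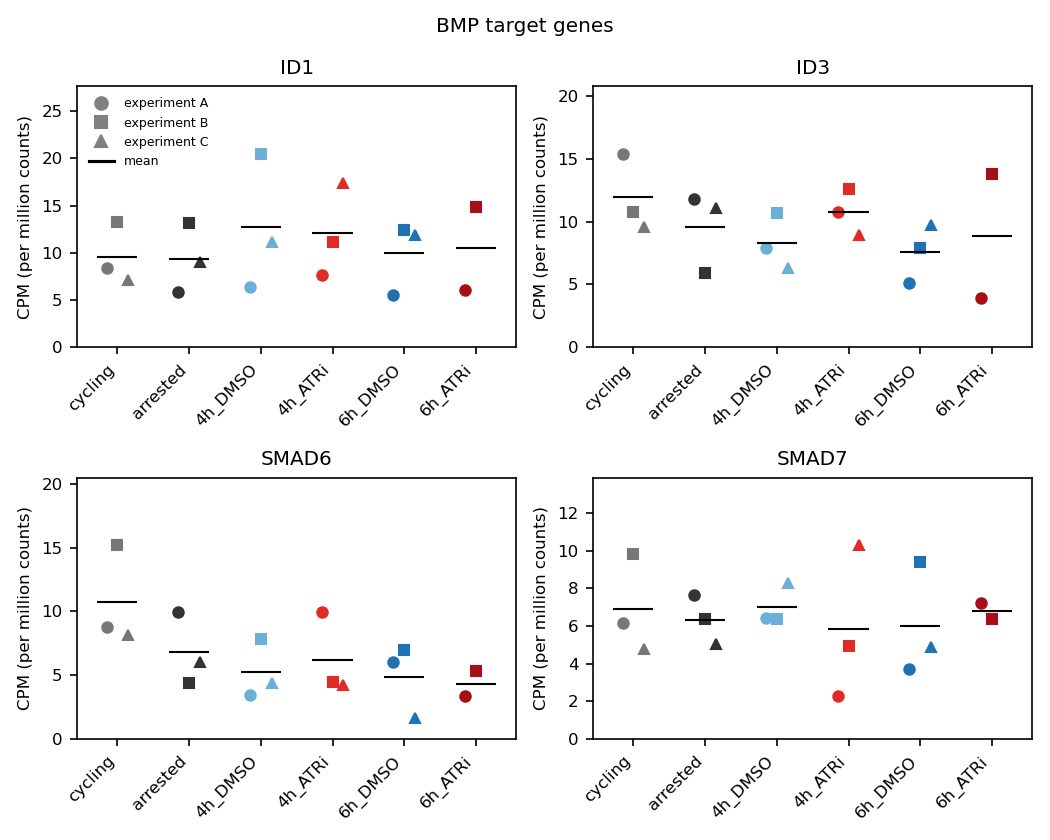
Level of ID1, ID3, SMAD6 and SMAD7 in CPM by condition; points are libraries, shapes are experiments and lines are means. The conditions overlap, except that SMAD6 in 4h_DMSO, 6h_DMSO and 6h_ATRi (1.63 to 7.82 CPM) lies below SMAD6 in cycling cells (8.13 to 15.2 CPM).

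TWIST1 was higher with the inhibitor at 4 h and lower with it at 6 h. Its level with DMSO was 22.3, 16.1 and 19.5 CPM at 4 h (A, B and C) and 38.3, 15.4 and 33.7 CPM at 6 h. With AZ20 it was 40.7, 39.1 and 23.0 CPM at 4 h and 19.4 and 10.6 CPM at 6 h (A and B). At 4 h all inhibitor libraries were above all DMSO libraries, with C the closest at 23.0 CPM against the highest DMSO library at 22.3 CPM. At 6 h the ranges overlapped, because the DMSO library of B was lower than the inhibitor library of A. Within an experiment the 4 h ratio of AZ20 to DMSO was 1.83, 2.43 and 1.18 in A, B and C, and the 6 h ratio was 0.507 and 0.692 in A and B. The means were 19.3 ± 3.08 CPM in 4h_DMSO, 34.3 ± 9.76 CPM in 4h_ATRi and 29.1 ± 12.1 CPM in 6h_DMSO (SD, n = 3), and 15 ± 6.22 CPM in 6h_ATRi (n = 2).

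The fitted log2 difference of TWIST1 was 0.83 ± 0.33 with the inhibitor at 4 h and -0.95 ± 0.40 at 6 h, and the 6 h response minus the 4 h response was -1.78 ± 0.52 (edgeR). In the fit without the replicate block none of the 3 was called. That fit called 0.311% of features at 4 h, 0.0074% at 6 h (1 feature) and 0.0% for the difference, where 401 features had an unadjusted p under 0.05 and DESeq2 called 0 features. With the block TWIST1 was the 1 member called at 4 h (0.85 ± 0.24, with 1.75% of features called) and in the difference (-1.78 ± 0.39, with 0.0444% of features called), and no member was called at 6 h (0.533% of features). These 3 comparisons chose TWIST1, so nothing is read from the calls. The authors' deposited table gives TWIST1 a log2 fold change of 0.64 at 4 h and -0.68 at 6 h.

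AC003986.2, the noncoding feature opposite to TWIST1, had few counts and the same signs. It was at 14.9, 9.77 and 7.80 CPM in 4h_DMSO and 14.9, 14.8 and 17.9 CPM in 4h_ATRi. At 6 h it was at 10.2, 16.8 and 13.6 CPM with DMSO and 7.22 and 9.04 CPM with AZ20. Library A did not differ at 4 h, and both 6h_ATRi libraries were below all 6h_DMSO libraries. The log2 differences were 0.55 ± 0.31 at 4 h, -0.73 ± 0.37 at 6 h and -1.28 ± 0.49 for the 6 h minus the 4 h response, and none passed, with edgeR adjusted p of 0.977, 1.0 and 1.0.

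**Figure D4:**
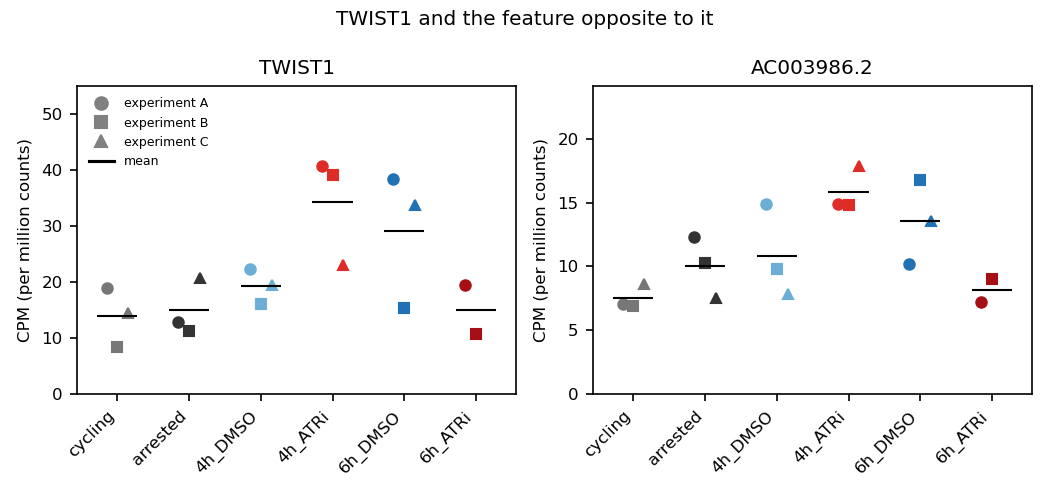
Level of TWIST1 (left) and AC003986.2 (right) in CPM by condition; points are libraries, shapes are experiments and lines are means. TWIST1 with AZ20 is at 23.0 to 40.7 CPM at 4 h and at 10.6 and 19.4 CPM at 6 h, and its 6h_DMSO library of experiment B lies apart from A and C.

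Without inhibitor, TWIST1 was at 18.9, 8.36 and 14.4 CPM in cycling cells and at 12.9, 11.3 and 20.6 CPM in arrested cells. The means were 13.9 ± 5.28 and 14.9 ± 5.00 CPM (SD, n = 3), which differ by less than their spread. In 6h_DMSO TWIST1 was 2.03, 1.84 and 2.34 times its cycling level in A, B and C and 2.96, 1.36 and 1.63 times its arrested level. The log2 difference of 6h_DMSO from cycling cells was 1.06 ± 0.35, with an edgeR adjusted p of 0.175 without the block and 0.0031 with it. The difference from arrested cells was 0.96 ± 0.35, with an adjusted p of 0.198 without the block and 0.0124 with it. Library B of 6h_DMSO was the low one: without it the difference from arrested cells was 1.26 and passed (edgeR adjusted p = 0.0427). With the block 3 members were called in 6h_DMSO against arrested cells (7.71% of features called with the block) and against cycling cells (6.29%). They were TWIST1, GREM1 and GREM1-AS1. Both comparisons use the 6h_DMSO libraries that also enter the inhibitor comparison, on which TWIST1 was selected. GREM1 and GREM1-AS1 were selected on their levels after release, so nothing is read from these calls. At 4 h against cycling cells the block called the same 2 members as without it (5.87% of features). The 4h_DMSO differences of TWIST1, 0.36 ± 0.36 from arrested and 0.47 ± 0.36 from cycling cells, did not pass.

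TWIST1 and AC003986.2 lie on chromosome 7, TWIST1 on the minus strand, and share 141 exon bases. Which transcripts of TWIST1 hold these bases was not examined. TWIST1 held 751 of the pair's 1137 counts (66.1%), by library 47.7% to 79.0% and by condition 60.1% (arrested) to 68.5% (4h_ATRi and 6h_DMSO). The exact binomial intervals of single libraries are wide at these counts, and whether the proportion varied more than that of GREM1 was not tested. The log2 CPM of the 2 features had a Pearson r of 0.52 across the 17 libraries with experiment means removed. Summed, the pair differed by 0.74 ± 0.23 with the inhibitor at 4 h, by -0.88 ± 0.27 at 6 h and by -1.62 ± 0.36 between the responses, and none was called. With the block the sum was called at 4 h (0.75 ± 0.20) and between the responses (-1.63 ± 0.31). The summed level in 6h_DMSO was above cycling cells by 0.99 ± 0.24 (edgeR adjusted p = 0.0365). That call was lost when any of the 3 cycling libraries, 6h_DMSO A or 6h_DMSO C was left out. Over all 17 fits that each leave out 1 library, the value ran from 0.85 to 1.20 and the adjusted p from 0.0225 to 0.18. Against arrested cells the sum differed by 0.77 ± 0.24 (adjusted p = 0.098, and 0.0085 with the block).

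**Figure D5:**
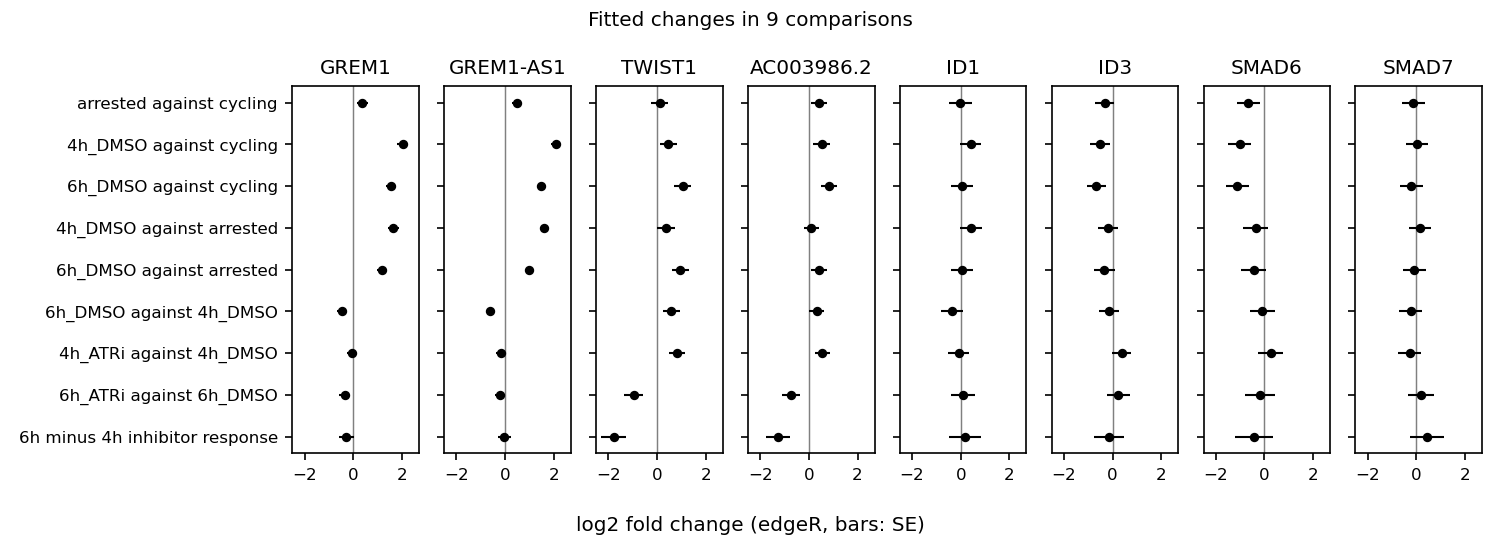
Fitted log2 fold changes of the 8 members in the fit, 1 panel per member, in 9 comparisons; points are edgeR values without a replicate block and bars are SE. GREM1 and GREM1-AS1 stand to the right of 0 in the 4 comparisons of released DMSO cells with arrested or cycling cells (1.00 to 2.09), and TWIST1 and AC003986.2 stand on opposite sides of 0 in the 2 inhibitor comparisons.

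The rest of the pathway was read from 7 lists that hold 102 genes of the BMP, TGF-beta and TWIST1 systems, of which 95 are no members and 55 of these passed the filter. By edgeR without the block, 1 of the 55 (CCN2) rose in 4h_DMSO against arrested cells (0.74% of all features called), with a median log2 difference of 0.08 over the 55 against 0.00 over all features. In 6h_DMSO against arrested cells 1 rose (RGMB, with 2.32% of all features called), in 4h_DMSO against cycling cells 2 rose (CCN2 and FST, with 0.918%) and in 6h_DMSO against cycling cells none was called, and none fell in these comparisons. No listed gene other than the members was called with the inhibitor at either time, in the difference, between 6 h and 4 h, or between arrested and cycling cells. With the block 4 of 55 rose in 4h_DMSO against arrested cells, beside 4.77% of all features called. In 6h_DMSO against arrested cells 3 rose and 1 fell (7.71% of all features called), in 4h_DMSO against cycling cells 6 rose (5.87%), and in 6h_DMSO against cycling cells 2 rose and 1 fell (6.29%). The block also called 1 gene in 4h_ATRi against 4h_DMSO (1.75%) and 1 in each direction between arrested and cycling cells (5.64%).

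Among ligands, 6 of 14 passed the filter and none was called. GDF6, a BMP-family ligand, averaged 21.4 CPM over the 17 libraries, BMP4 averaged 5.57 CPM and BMP8B, overlapped by PPIE, 4.50 CPM. Of 18 antagonists and extracellular modulators 7 were measured. FST, which encodes the activin and BMP binder follistatin, was at 5.89 ± 1.58 CPM in cycling cells, 12.7 ± 1.75 CPM in arrested cells and 21.9 ± 6.19 CPM in 4h_DMSO (SD, n = 3). It rose in 4h_DMSO against cycling cells by 1.88 ± 0.40 on the log2 scale (edgeR adjusted p = 0.0187). With the block it also passed in arrested and in 6h_DMSO against cycling cells (adjusted p = 0.0313 and 0.0028). FSTL1 (68.9 CPM) was not called with or without the block, while BTNL12P opposite to it passed with the block in 4h_DMSO and 6h_DMSO against arrested cells (adjusted p = 0.0127 and 0.00171). FSTL3 (21.6 CPM), a further follistatin family member, passed with the block and not without it, in 4h_DMSO against arrested cells (0.81 ± 0.30, adjusted p = 0.283 and 0.0285 with the block).

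Of 13 receptors and co-receptors 7 were measured, and ENG (17.2 CPM), RGMB (15.7 CPM) and BMPR2 (14.0 CPM) had the highest CPM. RGMB, a BMP co-receptor of the repulsive guidance family, was at 9.42 ± 0.13 CPM in arrested cells and 22.5 ± 1.43 CPM in 6h_DMSO (SD, n = 3). It rose by 1.25 ± 0.33 (edgeR adjusted p = 0.0389), and RGMB-AS1 on the opposite strand rose by 1.26 ± 0.29 (adjusted p = 0.0255), so the counts may belong to either. With the block RGMB-AS1 also passed in 6h_DMSO against 4h_DMSO (0.84 ± 0.28, edgeR adjusted p = 0.627, and 2.55e-05 with the block). Against cycling cells it passed with the block as lower in arrested cells (-0.69 ± 0.29, adjusted p = 0.000672) and higher in 6h_DMSO (0.57 ± 0.28, adjusted p = 0.00196). BMPR2, the type II receptor, passed with the block in 4h_DMSO against arrested cells (1.04, adjusted p = 0.103 and 0.022 with the block).

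Of the 14 SMADs and regulators 13 were measured and none was called by edgeR without the block. SMURF2, a ubiquitin ligase that acts on SMADs and receptors and is overlapped by CEP95, came closest at 0.88 ± 0.22 in 4h_DMSO against cycling cells (edgeR adjusted p = 0.0547, and 0.00739 with the block), and DESeq2 called it there. CEP95 itself passed with the block in 4h_DMSO and 6h_DMSO against cycling cells (adjusted p = 0.0181 and 0.0114). SMURF1 (overlapped by TRRAP, 26.5 CPM) and the repressor SKI (25.0 CPM) were not called. Of 17 target genes 7 were measured, 4 of them members, and the other 3 were SMAD9, ATOH8 and RUNX2. The median of the 7 was -0.19 in 4h_DMSO against arrested cells and -0.66 in 6h_DMSO against cycling cells, against 0.00 and -0.02 over all features. RUNX2, a factor of bone and cartilage cells, was at 13.4 ± 4.58 CPM in cycling cells and 4.77 ± 1.60 CPM in 6h_DMSO (SD, n = 3). That difference was -1.47 and passed with the block (edgeR adjusted p = 0.00626) and not without it (0.1). Against arrested cells RUNX2 in 6h_DMSO differed by -1.16 ± 0.43 (adjusted p = 0.201, and 0.0497 with the block).

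On the TGF-beta and activin side 13 of 15 genes were measured. CCN2, a matrix protein induced by TGF-beta and by YAP, went from 60.6 ± 18.5 CPM in arrested cells to 120 ± 23.4 CPM in 4h_DMSO, a rise of 0.99 ± 0.21 (edgeR adjusted p = 0.0245). In 4h_ATRi CCN2 was at 189 ± 46.0 CPM, a difference of 0.65 ± 0.20 from 4h_DMSO that passed with the block (edgeR adjusted p = 0.019) and not without it (0.35). AL133346.1, opposite to CCN2, had 987 ± 102 CPM in 4h_DMSO and 1590 ± 285 CPM in 4h_ATRi, with a difference of 0.69 ± 0.17 (adjusted p = 0.127, and 4.97e-08 with the block). AL133346.1 also rose in 4h_DMSO against arrested cells (0.77 ± 0.18, edgeR adjusted p = 0.0301) and cycling cells (0.82 ± 0.18, adjusted p = 0.0178). The counts may thus belong to either feature. With the block AL133346.1 passed in 6h_DMSO against arrested and cycling cells (adjusted p = 1.31e-05 and 1.39e-06). In 6h_DMSO against arrested cells CCN2 passed with the block (edgeR adjusted p = 0.0333) and not without it (0.175). INHBA, the activin A subunit, was at 75.7 ± 10.5 CPM in 4h_DMSO, 49.6 ± 11.5 CPM in arrested and 47.5 ± 5.68 CPM in cycling cells (SD, n = 3). It passed with the block against both (0.61 ± 0.24 and 0.67 ± 0.24, edgeR adjusted p = 0.011 and 0.00335 with the block, 0.329 and 0.235 without). TGFB1 (overlapped by HNRNPUL1, 805 CPM) was not called, and LOX, the collagen cross-linking oxidase (overlapped by SRFBP1, 125 CPM), was called with the block, in 6h_DMSO against arrested cells (0.46 ± 0.18, edgeR adjusted p = 0.251, and 0.00982 with the block) and in both comparisons with cycling cells. SRFBP1 opposite to LOX passed with the block in 5 comparisons, among them 4h_ATRi against 4h_DMSO (0.34 ± 0.14, edgeR adjusted p = 0.744, and 0.00591 with the block). AC013451.1, opposite to the latent TGF-beta binding gene LTBP2, passed with the block in 4h_DMSO against cycling cells (adjusted p = 0.00181). Among TWIST1 partners and mesenchymal factors 11 of 16 were measured and none was called by edgeR without the block. TCF3, an E protein that pairs with TWIST1, was at 33.1 ± 7.02 CPM in arrested and 50.6 ± 8.96 CPM in cycling cells (SD, n = 3), a difference of -0.62 ± 0.21 (edgeR adjusted p = 0.247, and 0.032 with the block). FN1, the matrix protein fibronectin (1980 CPM), passed with the block in 4h_DMSO against cycling cells (0.51 ± 0.20, adjusted p = 0.321, and 0.0415 with the block). VIM (1090 CPM) and CDH2 (43.6 CPM) were not called.

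The features most like GREM1 across the 17 libraries were ranked by Pearson r of log2 CPM with experiment means removed, as a description in which all points share their libraries. After GREM1-AS1 they were PPP1R12A-AS2 (opposite PAWR, r of 0.976), AC105105.1 (opposite ALPK2, 0.95), C12orf76 (opposite ANKRD13A, 0.948) and AL391422.4 (opposite PXDC1, 0.942). The most opposed were CMTM6 (-0.951, opposite CMTM7), AF127577.1 (opposite NRIP1, -0.944) and SYNC (opposite RBBP4, -0.937). For GREM1-AS1, AC126696.2 (opposite SLC7A5, 0.925) took the place of AL391422.4, and the rest were among the same features. AC105105.1 spanned a range much like GREM1, from 6.70 ± 1.16 CPM in cycling cells to 37.1 ± 14.3 CPM in 4h_DMSO (SD, n = 3), whereas PPP1R12A-AS2 went only from 360 ± 58.9 to 498 ± 60.5 CPM. Each of these 9 features has an annotated gene on the opposite strand. The share of all features with such a gene was not counted, so nothing is read from this.

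TWIST1 had a different set of neighbours. They were AL157838.1 (opposite ZNF217, r of 0.928), WBP4 (opposite ELF1, 0.865), GOLPH3 (0.836), MYOSLID (opposite AC009226.1, 0.821) and C1orf198 (0.80). The most opposed were FGF7P6 (opposite FAM88C, -0.826), TNFSF13 (-0.824) and AL354696.2 (opposite KBTBD7, -0.814). AC003986.2 was most like ABL1 (0.825), CHMP1B (opposite CHMP1B-AS1, 0.819), AC137932.2 (0.813), GOLGA1 (0.805) and FAM193B (0.801). It was most opposed to WHRN (-0.823), KATNA1 (opposite RPS18P9, -0.812) and SEMA4D (-0.81). The r of TWIST1 with GREM1 was 0.602. Among the other members, GREM1 had an r of 0.443 with ID1, -0.292 with ID3, -0.509 with SMAD6 and -0.067 with SMAD7.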

How the data were processed

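Total RNA isolated with Trizol was prepared for sequencing, per the labels' protocols, with the KAPA stranded kit for mRNA. The authors deposited whole-number read counts per Ensembl gene ID, not normalised. The submitters' processing notes name TopHat, GRCh37, HTSeq and DESeq2. Versions, annotation and strand setting are not given in the sources used. The authors' second deposited table holds log2 fold changes and adjusted p-values, and the direction of each comparison was set from the counts. GENCODE 29 and RefSeq (GRCh38.p14) served only for names, strand overlap and promoter sequence.

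Counts from 17 libraries were fitted once with edgeR 4.0.16 in R 4.3.3 (TMM, filterByExpr with minimum count 10 and minimum total 15, robust glmQLFit, glmQLFTest), with a mean per condition. A call is a Benjamini-Hochberg adjusted p under 0.05 over all 13510 features kept, in any of 9 comparisons. At this depth a feature at 1 CPM has about 2 counts. In a test on simulated data for 4h_ATRi against 4h_DMSO (12872 genes), 37% of 2-fold and 85% of 4-fold changes were called. The p-values measure the spread between these libraries. Intervals and shares cover counting error only, since reads carry no molecular identifiers.

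The letters A, B and C were taken as the 3 experiments of the design text. Deviations of same-letter libraries correlated across genes at 0.081 (6h_DMSO with cycling, C) to 0.534 (4h_ATRi with 4h_DMSO, B). In 6 of 23 such pairs, all between released and arrested or cycling cells, another letter correlated higher. In experiment B the same letter correlated higher in every comparison, at 0.403 to 0.534, with other letters at -0.214 or lower. The common coefficient of variation between libraries was 0.23 without the block and 0.119 with it. Values with a replicate block are given where they change a call of a feature reported here.

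Members and lists were chosen with earlier results of these data known, and 1 listed gene is not reported here. Named were all 9 members; listed genes called in any comparison, up to 20, and the 3 of highest mean CPM in each list; called features opposite to these; and for GREM1, GREM1-AS1, TWIST1 and AC003986.2 the 5 highest and 3 lowest features by Pearson r. Alternatives were the block, DESeq2 1.42.0, RLE factors, no filter, a minimum count of 30, leaving out experiment B, and leaving out each library.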

Additional observations from a re-analysis of the deposited data

Results flagged for a closer look

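TWIST1 was flagged for the difference between its inhibitor responses at the 2 times, the responses on which it was selected. The 6 h response minus the 4 h response was -1.78 on the log2 scale in the fit with a replicate block, and -1.63 for TWIST1 summed with AC003986.2. Both were called with the block and not without it. TWIST1 was selected on these responses and the sum shares its counts, so nothing is read from either call. Within experiments, TWIST1 with AZ20 was 1.83, 2.43 and 1.18 times its DMSO level at 4 h in A, B and C, and 0.507 and 0.692 times at 6 h in A and B.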

How the results depend on the processing

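No result changed direction as a call. The number of members called went from 0 to 1 with the replicate block in 4h_ATRi against 4h_DMSO, in the difference between inhibitor responses, in 6h_DMSO against 4h_DMSO and in arrested against cycling cells, and from 0 to 1 without experiment B in 6h_DMSO against 4h_DMSO. Of 90 fitted log2 differences (8 members and 2 sums in 9 comparisons), the block brought 11 past the threshold, each given with its result, and changed no other call. RLE factors changed none of the 90, and DESeq2 changed none of those for which it gave an adjusted p. In 6h_ATRi against 6h_DMSO DESeq2 gave an adjusted p for 2 members, and TWIST1 was not among them. Without a filter TWIST1 passed anew in 6h_DMSO against cycling cells, and at a minimum count of 30 TWIST1 plus AC003986.2 passed in 6h_DMSO against arrested cells (1 of 63 results). Without experiment B 5 of 90 passed anew: GREM1-AS1 (-0.67) and the GREM1 sum in 6h_DMSO against 4h_DMSO, TWIST1 in 6h_DMSO against arrested (1.11) and cycling cells (1.15), and the TWIST1 sum against arrested cells. With 1 library left out at a time, 5 calls were lost, all of TWIST1 plus AC003986.2 in 6h_DMSO against cycling cells, and 1 was gained, TWIST1 in 6h_DMSO against arrested cells without 6h_DMSO B. Leaving out experiment B, or A or B of 6h_ATRi, leaves that condition 1 library, which is assumed to vary like the others. Low counts limit the target genes: at 3 to 42 counts per library the SE of a log2 difference was 0.39 to 0.78, and ID2 could not be fitted.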
